A study of Mus musculus and Homo sapiens with 20 samples.

Results

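Autosomal H3K27me3 was compared between Tet2 KO and Tet2 WT haematopoietic stem and progenitor cells (HSPCs) over chromosomes 1 to 19, using the 4 H3K27me3 CUT&Tag peak lists of HSPCs among the 20 lists of the series. The cells were Lin- c-Kit+ (LK) bone marrow cells, purified with magnetic beads from C57BL/6 mice (WT, 2 libraries) and from Tet2-/- mice backcrossed to C57BL/6 (KO, 2 libraries), all aged 6 to 8 weeks. Tet2 was absent from the whole animal and not only from blood cells, and LK cells are a mixture of stem cells and committed progenitors, so that a share of cells with the mark and the amount of mark per cell cannot be told apart. The methods also describe LK cells held in suspension culture with cytokines. How many mice went into a library, and of which sex, is not given in the labels.

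H3K27me3 is laid down by Polycomb repressive complex 2 and lies over the promoters of silent developmental genes in broad domains. Polycomb repressive complex 1 adds H2AK119ub, which is read by PRC2 and is often found at the same places. TET2 oxidises 5-methylcytosine, in DNA and in RNA, and its loss in blood stem cells is frequent in myeloid malignancy and in clonal haematopoiesis. The question here was where on the autosomes the mark was present in KO but not in WT HSPCs, and the reverse.

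Each list gave positions and no height, so every value below is a covered share, that is, the percentage of a stretch of genome lying under called peaks. A domain was a stretch of at least 5 kb formed by joining the peaks of all 4 libraries within 1 kb. A domain was called gained when the lower KO share exceeded the higher WT share by at least 20 percentage points, and lost in the reverse case. A promoter, meaning the 2 kb centred on the start of a protein-coding gene, was called gained when a peak touched it in both KO and in neither WT library, and lost in the reverse case. Where group means are tested, the p-value is two-sided and exact, from a permutation of the 4 libraries in all 6 ways, and cannot fall below 0.333.

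The 4 promoters that differed most give a view of the sequence under these calls. Below are the 250 bases directly before the start of the 2 gained and the 2 lost promoters with the widest gap in coverage, written 5′ to 3′ on the strand of the gene, with each CpG in capitals (genome sequence of GRCm38.p6 from RefSeq, starts from GENCODE M21). Fam205c lies on the minus strand with this stretch at chr4:42874235-42874484, Krt13 on the minus strand at chr11:100121567-100121816, Cga on the plus strand at chr4:34893529-34893778, and Sfn on the minus strand at chr4:133602169-133602418.
Fam205c: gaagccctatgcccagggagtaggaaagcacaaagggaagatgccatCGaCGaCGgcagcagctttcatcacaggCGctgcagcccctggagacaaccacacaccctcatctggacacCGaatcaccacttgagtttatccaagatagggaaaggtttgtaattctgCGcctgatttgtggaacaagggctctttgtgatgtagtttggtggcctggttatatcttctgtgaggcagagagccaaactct
Krt13: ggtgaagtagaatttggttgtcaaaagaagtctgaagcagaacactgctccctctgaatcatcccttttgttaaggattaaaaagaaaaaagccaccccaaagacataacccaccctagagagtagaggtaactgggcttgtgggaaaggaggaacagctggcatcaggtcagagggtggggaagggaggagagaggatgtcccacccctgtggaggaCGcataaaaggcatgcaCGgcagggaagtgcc
Cga: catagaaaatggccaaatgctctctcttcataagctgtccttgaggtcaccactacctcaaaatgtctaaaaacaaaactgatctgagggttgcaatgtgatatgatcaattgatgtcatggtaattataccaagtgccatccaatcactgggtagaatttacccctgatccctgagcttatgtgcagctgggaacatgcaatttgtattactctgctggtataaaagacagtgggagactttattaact
Sfn: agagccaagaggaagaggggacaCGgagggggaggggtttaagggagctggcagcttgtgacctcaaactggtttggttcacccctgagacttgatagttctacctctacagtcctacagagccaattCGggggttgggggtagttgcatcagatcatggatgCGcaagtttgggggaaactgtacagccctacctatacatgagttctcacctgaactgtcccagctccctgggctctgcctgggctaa
The Fam205c stretch held 6 CpGs, Sfn held 3, Krt13 held 2 and Cga held 0, against a median of 8 over the same 250 bases of all 20807 autosomal protein-coding promoters. These 4 do not stand for the calls as a whole, since the median was 8 over all 249 gained and 7 over all 270 lost promoters. The GC-box letters GGGCGG, present on either strand in 39.6% of these promoters, were in none of the 4 sequences. The GATA-type letters AGATAA (8.92% of promoters) were also in none, and the RUNX-type letters TGTGGT (13.0% of promoters) occurred on either strand 1 time, in Fam205c. A match or its absence describes these letters only.

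Over the 4 libraries the autosomes held 84467 and 85015 peaks in WT against 82918 and 80835 in KO. KO peaks were fewer and wider: the median width was 693 and 710 bp in WT and 774 and 746 bp in KO (exact p = 0.333 for either measure, the smallest possible). The covered length did not separate the genotypes, since KO replicate 1 had the widest coverage at 176.6 Mb while KO replicate 2 had the narrowest at 163.2 Mb. Shared coverage, as a Jaccard index, was 0.618 between the WT and 0.662 between the KO libraries, against 0.599 to 0.610 between genotypes. Outside the autosomes, the X chromosome carried 21.7-fold more covered length in the KO than in the WT mean. The part of that difference between the libraries in the autosomal results was not tested, and it cannot be told apart from genotype.

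The 11329 autosomal domains, 185.2 Mb in all, contained more gains than losses. Both KO libraries lay at least 20 points above both WT libraries in 1014 domains (8.95% of those tested) and at least 20 points below in 534 (4.71%). In gained domains the mean covered share was 27.8% and 28.2% in the WT libraries and 71.7% and 66.1% in the KO libraries. In lost domains it was 70.4% and 70.7% in WT against 34.6% and 31.2% in KO. The gained domains were therefore mostly partly marked in WT, with 106 of them under 10% covered in both WT libraries, and 29 without any peak in either. Of the lost domains, 38 were under 10% in both KO libraries and 12 had no peak left in either.

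**Figure D1:**
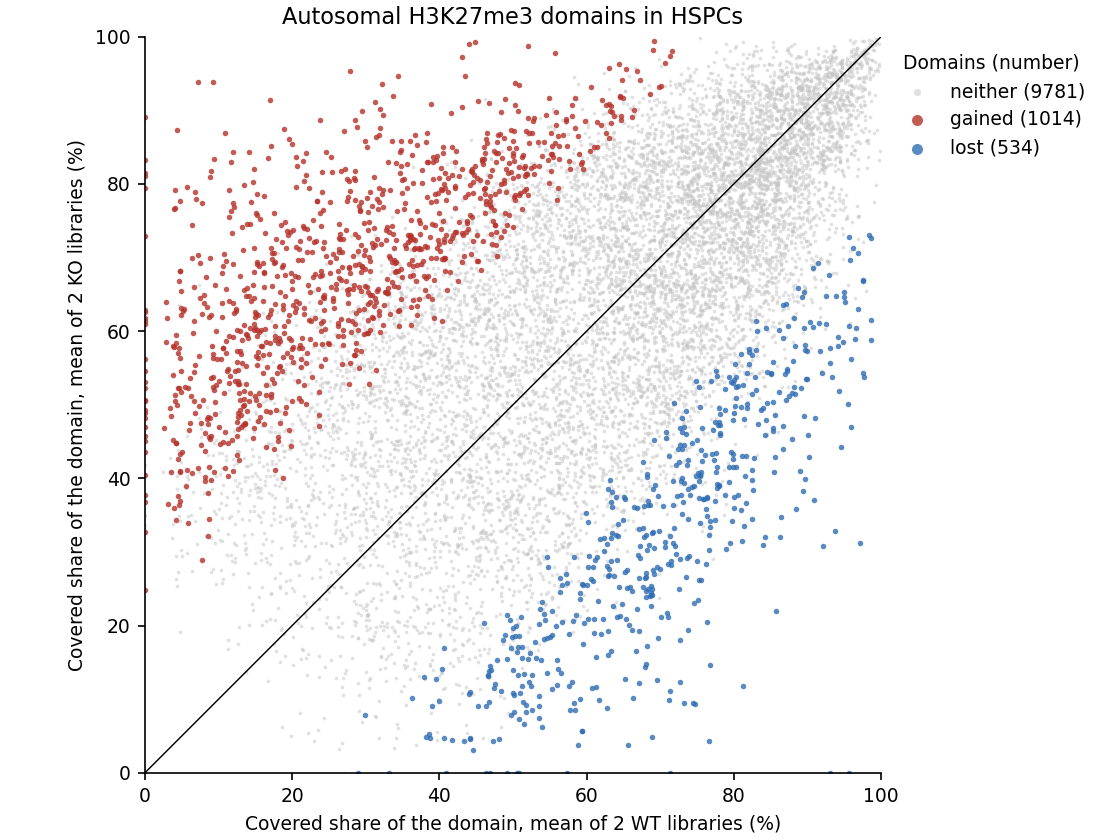
Covered share of each of 11329 autosomal H3K27me3 domains, as the mean of the 2 WT libraries (horizontal axis, %) and of the 2 KO libraries (vertical axis, %). The 1014 gained domains (red) spread from unmarked to partly marked in WT and lie above the line, and the 534 lost domains (blue) lie below it. The line marks equal shares.

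The calls were set by the size of the gap and not by a p-value, and they had no sharp edge. The gained domain nearest to the threshold had a gap of 20.002 points and the nearest outside it 19.99 points, with 481 domains between 15 and 20 points and 355 between 20 and 25. A limma fit on arcsine-transformed shares over all 11329 domains called 15 domains at a Benjamini-Hochberg adjusted p under 0.05 (0.132%), 8 higher and 7 lower in KO, and 3226 at an unadjusted p under 0.05. Leaving out any of the 4 libraries reduced the limma calls to 0 and raised the counts by gap to between 1143 and 1937 gained and between 787 and 1157 lost. Without KO replicate 1 the excess of gains ended, with 1143 domains gained and 1157 lost. It held without KO replicate 2 (1937 and 787), without WT replicate 1 (1590 and 983) and without WT replicate 2 (1605 and 849).

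Gained domains lay away from gene starts. A protein-coding start fell inside 80 of the 1014 gained domains (7.89%), inside 196 of the 534 lost domains (36.7%) and inside 40.4% of the 9781 domains called neither. The median distance to the nearest such start was 70.4 kb for gained domains, 7.48 kb for lost domains and 10.8 kb for the rest. Outside protein-coding genes altogether lay 515 gained domains, and 419 more were within a gene body but held no start. Read the other way, 13.4% of all domains outside genes and 12.8% of those in gene bodies were gained, against 1.89% of those holding a start. Losses were spread evenly over the same 3 places, at 4.33%, 5.26% and 4.63%. Domains holding a start were covered to 73.7% and 74.7% in WT, against 51.5% and 51.7% outside genes. They therefore had less room for a gain, and the part of this in the counts was not tested.

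H2AK119ub, read in 4 other HSPC libraries and not used to call the domains, also divided gained from lost domains. The gap rule itself favours low WT H3K27me3 coverage among gains and high WT coverage among losses. The part of this in the division was not tested. Peaks of H2AK119ub covered on average 6.25% and 3.43% of the gained domains in the WT libraries and 7.14% and 7.65% in the KO libraries. In lost domains the same mark covered 44.7% and 37.3% in WT against 43.6% and 44.2% in KO, and in the remaining domains between 23.9% and 33.0%. No H2AK119ub peak touched 598 and 745 of the gained domains in the WT libraries, while only 59 and 75 of the lost domains lacked one. H2AK119ub in gained domains was higher in both KO libraries (exact p = 0.333), as it was over all 11329 domains, where it covered 28.8% and 22.7% in WT against 30.1% and 31.3% in KO. These covered shares are unlike the spike-in-normalised levels by which the paper reports H2AK119ub loss in Tet2 KO HSPCs. In lost domains the H2AK119ub shares of the genotypes overlapped (exact p = 1), so that H3K27me3 coverage there was lower in KO without a separated difference in H2AK119ub.

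When all domains were ordered by their H2AK119ub share in WT, the share of gains declined and the share of losses increased from class to class. Of 2419 domains without H2AK119ub in either WT library, 22.7% were gained and 1.78% lost. Of 2375 domains covered to 50% or more, 0.463% were gained and 8.29% lost. The mean H3K27me3 share in the first class was 41.2% and 40.02% in WT against 62.7% and 53.4% in KO, and in the last class 68.3% and 71.4% in WT against 60.5% and 57.2% in KO. Neither class overlapped between the genotypes, and they moved in opposite directions. The first class thus had more room for a gain by the gap rule, and the last class more coverage to lose. How much of the trend follows from this was not tested. The class next below the last was covered to 71.3% and 72.4% in WT, with 2.47% of its domains gained and 6.57% lost.

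**Figure D2:**
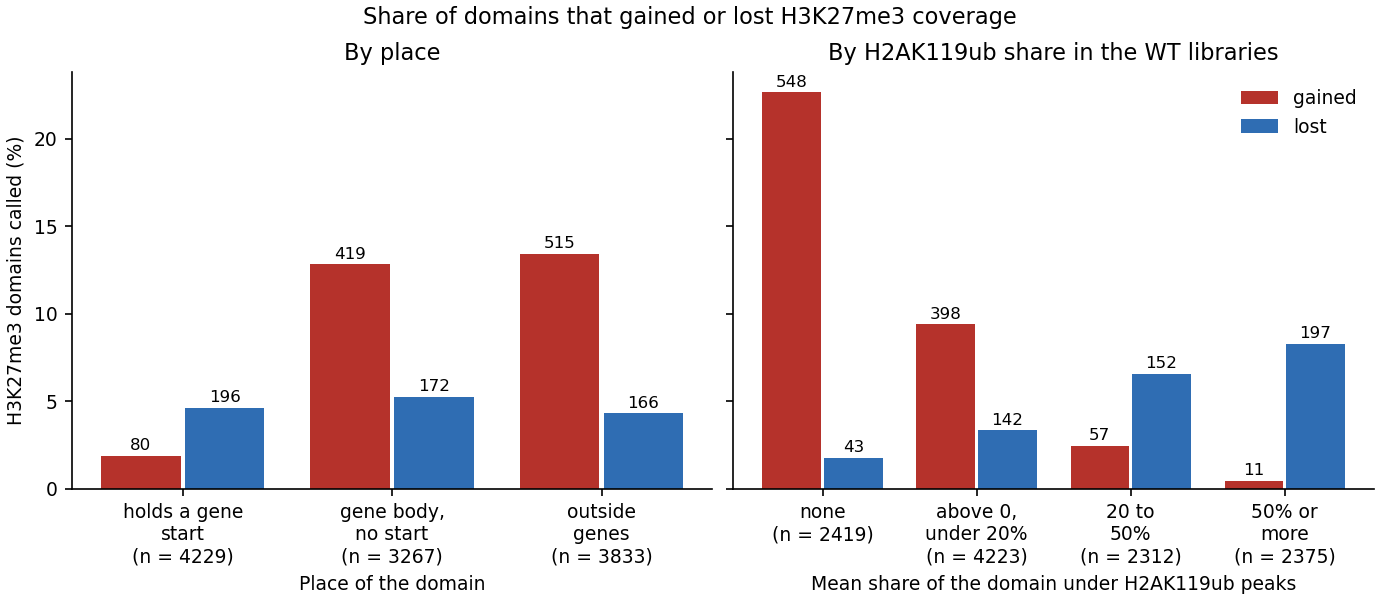
Percentage of domains that gained (red) or lost (blue) H3K27me3 coverage, by place (left) and by the mean share of the domain under H2AK119ub peaks in the 2 WT libraries (right); numbers over the bars are domains called. Gains made up 22.7% of domains without H2AK119ub and 0.463% of those covered to 50% or more. The classes also differed in WT H3K27me3 share, and so in their room for a gain or a loss.

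Changed domains also had neighbours of their own kind. Within 200 kb, 710 of the 1014 gained domains (70.0%) had another gained domain and 52 (5.13%) a lost one. Among lost domains 236 of 534 (44.2%) had another lost domain nearby and 44 (8.24%) a gained one, whereas domains called neither had a gained neighbour in 27.6% and a lost neighbour in 15.3% of cases. Gained domains were poorer in CpG, with a median of 10.6 CpGs per kb, than lost domains with 14.3 and the rest with 13.2. Soft-masked repeats made up similar medians of 17.6%, 19.97% and 19.5%. Short domains were called more often in either direction: 10.9% of those of 5 to 10 kb were gained and 6.71% lost, compared with 1.11% and 0.741% of the 540 domains of 50 kb or more. A gap of 20 points takes fewer bases in a short domain than in a long one. The part of this in the difference by length was not tested. Peaks in gained domains were wider in KO, which is largely set by the rule that selected these domains on coverage. The median widest peak in a gained domain was 1.24 and 1.26 kb in WT and 3.93 and 3.40 kb in KO. Lost domains had the mirror image, with 3.775 and 3.716 kb in WT and 1.842 and 1.464 kb in KO. The mean number of peaks per gained domain was 3.06 and 3.07 in WT against 3.40 and 3.57 in KO.

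Of the gained domains described here the most coverage was gained over 40.01 kb at chr4:42868188-42908198, a stretch that held the start of Fam205c and 1687 bp of its exons. Its covered share was 11.9% and 9.86% in WT against 84.4% and 89.5% in KO, and it was the only one of the 12 domains named here that passed limma (adjusted p = 0.0485). This neighbourhood of chromosome 4 is known to carry near-identical gene copies. Reads matching several copies were kept at their best alignment, which may be any of equal copies, so the value is uncertain. The second by gained coverage, 80.7 kb at chr8:12192978-12273690, overlapped no protein-coding gene and went from 35.5% and 37.2% in WT to 77.2% and 62.2% in KO. Neither domain carried much H2AK119ub, at most 9.18% in any library.

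The next 4 gained domains lay over genes. Over Slc6a2, the noradrenaline transporter, a domain of 31.9 kb was covered to 28.5% and 28.6% in WT against 85.5% and 91.8% in KO. Over Prom2, a membrane protein of epithelial protrusions, a domain of 34.6 kb was covered to 40.7% and 36.9% in WT against 92.2% and 89.6% in KO. Inside Kcnd3, a voltage-gated potassium channel, a domain of 25.4 kb with no start and no exon was covered to 8.93% and 4.57% in WT against 82.4% and 75.3% in KO. Inside Frmpd2 a domain of 41.8 kb was covered to 30.2% and 29.3% in WT against 79.4% and 70.2% in KO. In each of these 4 domains both KO libraries stood at least 39.9 points above both WT libraries, with limma adjusted p-values of 0.0528, 0.0528, 0.0528 and 0.0728.

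Of the lost domains described here the most coverage was lost over 80.1 kb at chr4:136199706-136279787, a stretch that held the starts of Asap3, an Arf GTPase-activating protein, and Tcea3, a transcription elongation factor. It was covered to 89.9% and 89.7% in WT against 53.8% and 53.3% in KO. H2AK119ub covered 66.5% and 67.1% of it in WT against 59.9% and 53.0% in KO, and mES cells had at most 3.37% H3K27me3 there. The next, 69.6 kb holding the start of Esrp1, an epithelial splicing regulator, was covered to 89.5% and 87.9% in WT against 64.7% and 67.1% in KO.

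The remaining 4 lost domains had the same direction. A domain of 57.6 kb over Fam167a and Tdh, the latter coding for threonine dehydrogenase, was covered to 82.3% and 88.2% in WT against 53.3% and 58.3% in KO. One of 29.2 kb inside Ryr1, the calcium release channel of skeletal muscle, was covered to 93.6% and 98.1% in WT against 56.3% and 56.1% in KO. At the start of Igf1r, the IGF1 receptor, 41.8 kb were covered to 71.5% and 74.5% in WT against 48.0% and 48.5% in KO. A stretch of 35.6 kb without a gene, at chr5:106780980-106816610, was covered to 71.9% and 78.9% in WT against 42.8% and 37.7% in KO. In all 6 lost domains named here, more than 35% of the stretch remained under peaks in both KO libraries, and their limma adjusted p-values ranged from 0.0528 to 0.119.

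**Figure D3:**
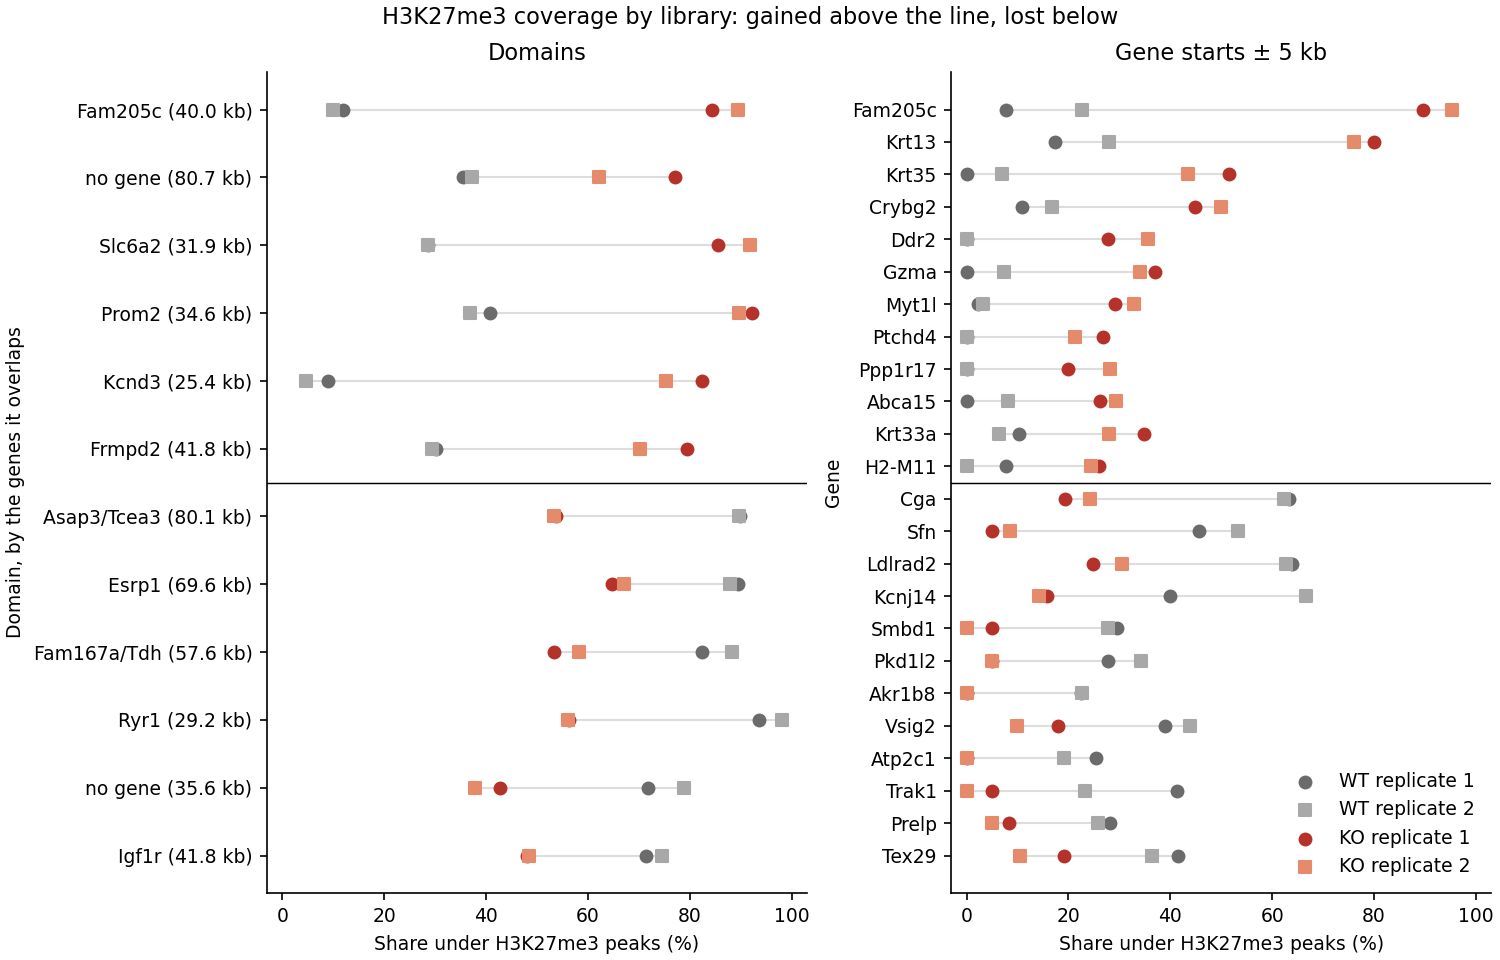
Share under H3K27me3 peaks (%) in each of 4 libraries for 12 named domains (left) and for the stretch of 5 kb on each side of the start of 24 named genes (right); grey marks are WT, red marks KO, circles replicate 1 and squares replicate 2. In every row above the line both KO libraries lie to the right of both WT libraries, and in every row below it to the left. The rows were picked by this gap.

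Some long genes collected many changed domains. The 1-Mb windows with the most calls were ranked after their values were seen, and they hold the following genes. In the window at chr4:151000001-152000000, 14 of 23 domains were gained and 0 lost. Camta1, a calmodulin-binding transcription factor, contained 12 of the gained domains, and the 945 kb of its body were covered to 19.2% and 21.7% in WT against 33.4% and 30.1% in KO. Cdh4, coding for R-cadherin on chromosome 2, contained 19 domains of which 10 were gained and 0 lost, with 38.4% and 41.0% of the body covered in WT against 58.9% and 53.4% in KO. Tcerg1l on chromosome 7 had 25.7% and 21.8% of its body covered in WT against 45.9% and 43.7% in KO.

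In the windows with most losses the genes differed. Tcf7l2 on chromosome 19, a transcription factor of the Wnt pathway, contained 5 domains of which 4 were lost, and 27.5% and 27.2% of its body were covered in WT against 11.5% and 12.2% in KO. Frmd5 on chromosome 2 was covered to 16.4% and 17.7% in WT against 6.54% and 7.62% in KO, and Fcgr3 on chromosome 1, a low-affinity IgG Fc receptor of myeloid cells, to 35.6% and 31.6% in WT against 13.3% and 15.9% in KO. Fcgr3 held a single domain, which was lost, and other genes of these windows did not separate, such as Ckmt1 at 100% in all 4 libraries. Long bodies went in both directions. Of 2372 protein-coding genes of at least 100 kb, 662 (27.9%) were higher in both KO than in both WT libraries and 612 (25.8%) lower. The mean covered share of these bodies was 6.62% and 6.69% in WT against 7.49% and 6.82% in KO.

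By chromosome, both KO libraries had more covered length than both WT libraries on 6 of 19 autosomes (31.6%) and less on 1 (5.26%). Chromosome 12 stood highest, with 6.43 and 6.51 Mb in WT and 7.39 and 6.75 Mb in KO, 9.37% more in the mean. On chromosome 17 the covered length was 5.91 and 6.04 Mb in WT and 5.82 and 5.42 Mb in KO, a mean change of -5.93%. The same chromosomes were at the ends of the domain counts, since 14.4% of 472 domains on chromosome 12 were gained and 1.91% lost, while 6.08% of 411 on chromosome 17 were gained and 9.002% lost. Within 10 Mb of Tet2 on chromosome 3, 5 of 52 domains were gained (9.62%) and 6 lost (11.5%), against 7.08% and 7.74% of the 452 domains on that chromosome.

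**Figure D4:**
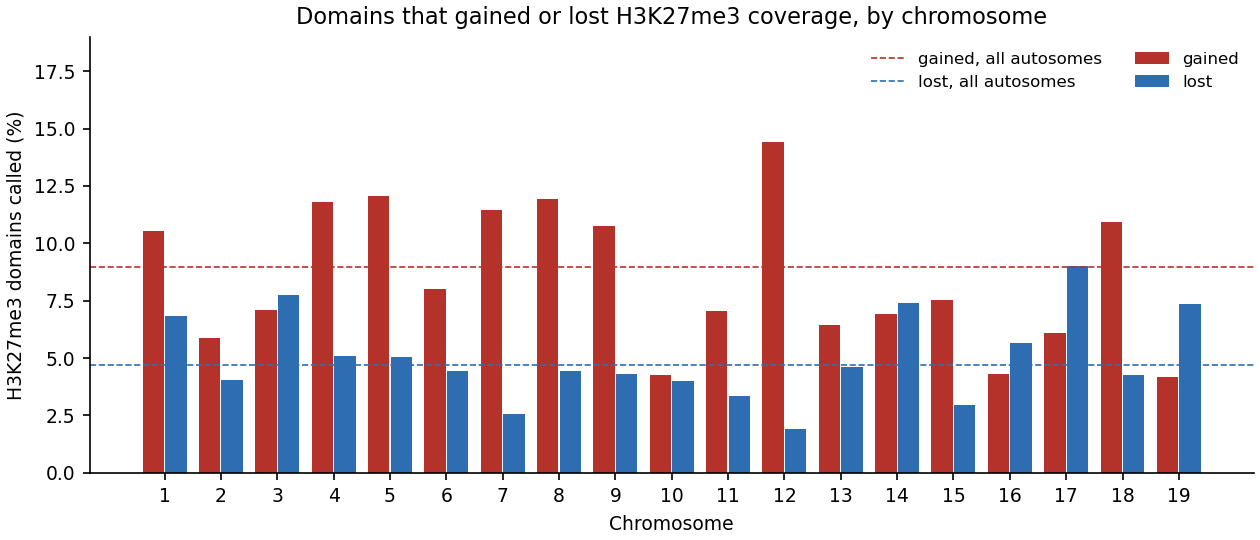
Percentage of H3K27me3 domains that gained (red) or lost (blue) coverage on each autosome, with dashed lines at the share over all autosomes, 8.95% gained and 4.71% lost. Chromosome 12 had the highest share of gains at 14.4% and chromosome 17 the highest share of losses at 9.002%.

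At promoters the calls were few and balanced. A peak touched 12597 and 13047 of the 20807 promoters in WT against 12841 and 12753 in KO (exact p = 1), and 10695 promoters were touched in all 4 libraries. A peak in both KO and neither WT library was found at 249 promoters (1.2%), and the reverse at 270 (1.3%). Many of these calls rested on narrow peaks. The commonest peak width, 501 bp, covers 25.05% of a promoter, and no library exceeded that in 101 of the gained and 109 of the lost promoters. Only 8 promoters in each direction were covered to 50% or more in both libraries that had the mark. Few promoter calls lay within changed domains, 10 gained promoters in gained and 8 lost promoters in lost domains.

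Gained and lost promoters had a CpG content between those of promoters always marked and never marked. The median observed-to-expected CpG ratio was 0.467 for gained and 0.387 for lost promoters, compared with 0.601 for promoters touched in all 4 libraries, 0.170 for those touched in none and 0.486 for all. Per class of this ratio, 1.54% of promoters between 0.2 and 0.4 were gained and 2.10% lost, the highest shares of 4 classes. Among the 7285 CpG-rich promoters with a ratio of 0.6 or more, 1.15% were gained and 1.04% lost.

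The gained promoters were ranked by the gap over 5 kb on each side of the start. Fam205c was covered over this stretch to 7.67% and 22.7% in WT against 89.7% and 95.2% in KO. Krt13, a keratin of stratified epithelia, was covered to 17.4% and 28.01% in WT against 80.1% and 76.1% in KO, and Krt35, a hair keratin, to 0% and 7.01% in WT against 51.5% and 43.5% in KO. That both KO libraries were above both WT libraries in each case follows from the ranking. Gzma, the cytotoxic lymphocyte protease granzyme A, was covered to 0% and 7.33% in WT against 37.0% and 34.1% in KO. Myt1l, a neuronal zinc finger factor, was covered to 2.25% and 3.22% in WT against 29.1% and 32.9% in KO, and Ddr2, a collagen receptor, to 0% in both WT libraries and 27.7% and 35.7% in KO. The other 6 of the 12 were Crybg2, Ptchd4, Ppp1r17, Abca15, Krt33a and H2-M11, with gaps from 16.8 to 28.1 points. H2-M11, the Krt33 pair and Fam205c have close paralogues, for which reads may have been assigned to either copy.

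The lost promoters were ranked by the same gap. Cga, coding for the common alpha subunit of pituitary glycoprotein hormones, was covered over 5 kb on each side to 63.2% and 62.3% in WT against 19.4% and 24.3% in KO. Sfn, the gene of epithelial 14-3-3 sigma, was covered to 45.6% and 53.2% in WT against 5.01% and 8.56% in KO. Its promoter itself went from 93.5% and 98.3% to 0% in both KO libraries, while H2AK119ub covered it fully in all 4 libraries. Kcnj14, an inward rectifier potassium channel, was covered to 40.01% and 66.7% in WT against 15.9% and 14.3% in KO. The other 9 of the 12 were Ldlrad2, Smbd1, Pkd1l2, Akr1b8, Vsig2, Atp2c1, Trak1, Prelp and Tex29, with gaps from 17.2 to 32.2 points. Atp2c1, a calcium pump of the Golgi apparatus, and Akr1b8, an aldo-keto reductase, had 0% over the whole stretch in both KO libraries.

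Gene lists were described over the same 5 kb on each side of the start. Over all 20807 genes the mean covered share was 23.5% and 24.1% in WT against 22.7% and 21.9% in KO, a relative change of -6.27%. Both KO libraries lay above both WT libraries at 1917 starts (9.21%) and below both at 3998 (19.2%), and each list is read against these shares. Of 37 lists, 23 had a lower mean in both KO than in both WT libraries, 6 a higher mean and 8 overlapped. Exact tests of a single list cannot pass 0.333, starts of clustered genes share domains, and individual genes named for this stretch below were ranked after their values were seen.

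Starts of myeloid genes were often less covered in KO. Of 30 genes, 14 were lower in both KO libraries (46.7%) and 1 was higher, and the mean share was 31.8% and 33.4% in WT against 26.9% and 25.7% in KO. Fcgr3 was covered to 50.8% and 57.8% in WT against 21.4% and 20.03% in KO. Irf8, a transcription factor of monocyte and dendritic cell development, was covered to 53.2% and 75.5% in WT against 39.8% and 39.1% in KO. Cd14, a lipopolysaccharide co-receptor, was covered to 91.9% and 94.0% in WT against 75.9% and 72.5% in KO, with its promoter fully covered in all 4 libraries. Cd68, a macrophage marker, was the only list member with a lost promoter, and none had a gained one.

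Cytokine and NF-kB feedback genes followed the same direction, which was not particular to blood or immune lists. Notch, Eph and semaphorin genes were lower in both KO libraries at 36.5% of starts and higher at 12.2%. Ribosomal protein genes were lower at 30.3% and higher at 7.89%, and solute carriers at 26.1% and 8.42%. Among 21 genes of the NF-kB and cytokine feedback list, 6 were lower in both KO libraries (28.6%) and 1 higher, with mean shares of 30.4% and 33.5% in WT against 27.3% and 24.8% in KO. Socs3, an inhibitor of cytokine receptor signalling, was covered to 87.5% and 85.6% in WT against 61.9% and 54.5% in KO, and its promoter to 100% in WT against 74.7% and 62.8% in KO. Among 141 interleukins, interferons and receptors, 37 were lower (26.2%) and 5 higher, with means of 17.5% and 19.1% in WT against 14.6% and 14.5% in KO. Tnf, a pro-inflammatory cytokine, was covered to 47.7% and 51.8% in WT against 14.2% and 11.3% in KO, and Il6st, the shared gp130 receptor subunit, to 56.6% and 42.3% in WT against 14.9% and 13.4% in KO. Promoters of this list were lost at 6 genes (4.26%, against 1.3% of all promoters) and gained at none. These were Il2, Il21, Il3, Il20ra, Ifna1 and Ifna4, most of them with 1 or a few narrow peaks in WT. Il2 and Il21 are neighbours on chromosome 3, and the interferon genes are close paralogues.

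In the other blood lists the share of lower genes was nearer to the 19.2% of all starts. Of 25 stem and progenitor regulators, 6 were lower in both KO libraries (24.0%) and 0 higher, and no promoter was gained or lost. Lyl1, a bHLH factor of early haematopoiesis, was covered to 54.8% and 59.0% in WT against 30.2% and 23.9% in KO, and Flt3, a cytokine receptor of progenitors, to 41.2% and 49.5% in WT against 31.5% and 31.7% in KO. Among 27 erythroid and megakaryocytic genes 4 were lower (14.8%, below the share of all starts) and 1 higher, and the largest gap was that of Zfpm1, the GATA1 cofactor FOG1, covered to 96.8% and 87.6% in WT against 56.9% and 47.1% in KO. Among 36 lymphoid genes 8 were lower (22.2%) and 1 higher, and 3 promoters were lost, those of Cd79a, Cd3d and Ccr7. Within 5 kb of the start only Cd79a separated the genotypes, while the shares of Cd3d and of Ccr7 overlapped between them. Cd79a, a subunit of the B-cell receptor, had 17.6% and 11.9% in WT against 0% in both KO libraries. Cd22, another B-cell marker, moved with it, with 10.02% and 12.2% in WT against 0% in both KO libraries. Pax5 and Ebf1 were fully covered in all 4 libraries, and the part of residual B cells in these values was not tested.

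Clustered protocadherins and keratins were among the 6 lists with higher coverage in KO. Of 57 clustered protocadherins, neuronal adhesion molecules on chromosome 18, 29 were higher in both KO libraries (50.9%) and 1 was lower, and the mean share was 20.7% and 20.8% in WT against 29.4% and 24.96% in KO. Promoters of Pcdha2, Pcdha8 and Pcdhb11 were gained. Of 53 keratins, 23 were higher (43.4%) and 5 lower, with mean shares of 59.4% and 57.3% in WT against 68.7% and 63.4% in KO, and 5 promoters were gained, all in the type I cluster of chromosome 11 (Krt13, Krt33a, Krt33b, Krt35 and Krt40). The simple-epithelial keratins Krt8 and Krt18 were among the 5 lower members. Krt18 was covered to 60.2% and 51.6% in WT against 30.1% and 20.1% in KO.

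Chemosensory and metabolic families were sparsely marked. Over 1087 olfactory receptors the mean share was 3.69% in both WT libraries and 4.88% and 4.32% in KO, with 69 genes higher (6.35%, below the 9.21% of all starts) and 17 lower, and 942 promoters had no peak in any library. Over 94 cytochrome P450 genes, oxidases of drugs and steroids, it was 14.1% and 14.7% in WT against 16.1% and 16.2% in KO. Cyp2e1, an ethanol-inducible member, was covered to 39.7% and 44.4% in WT against 75.9% and 63.5% in KO. Collagens and the vomeronasal and taste receptors were the other lists with higher means. Of the vomeronasal and taste receptors 4 of 379 were higher (1.06%), and of collagens 12 of 42 were higher and 7 lower. Close paralogues in these families make single members uncertain.

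**Figure D5:**
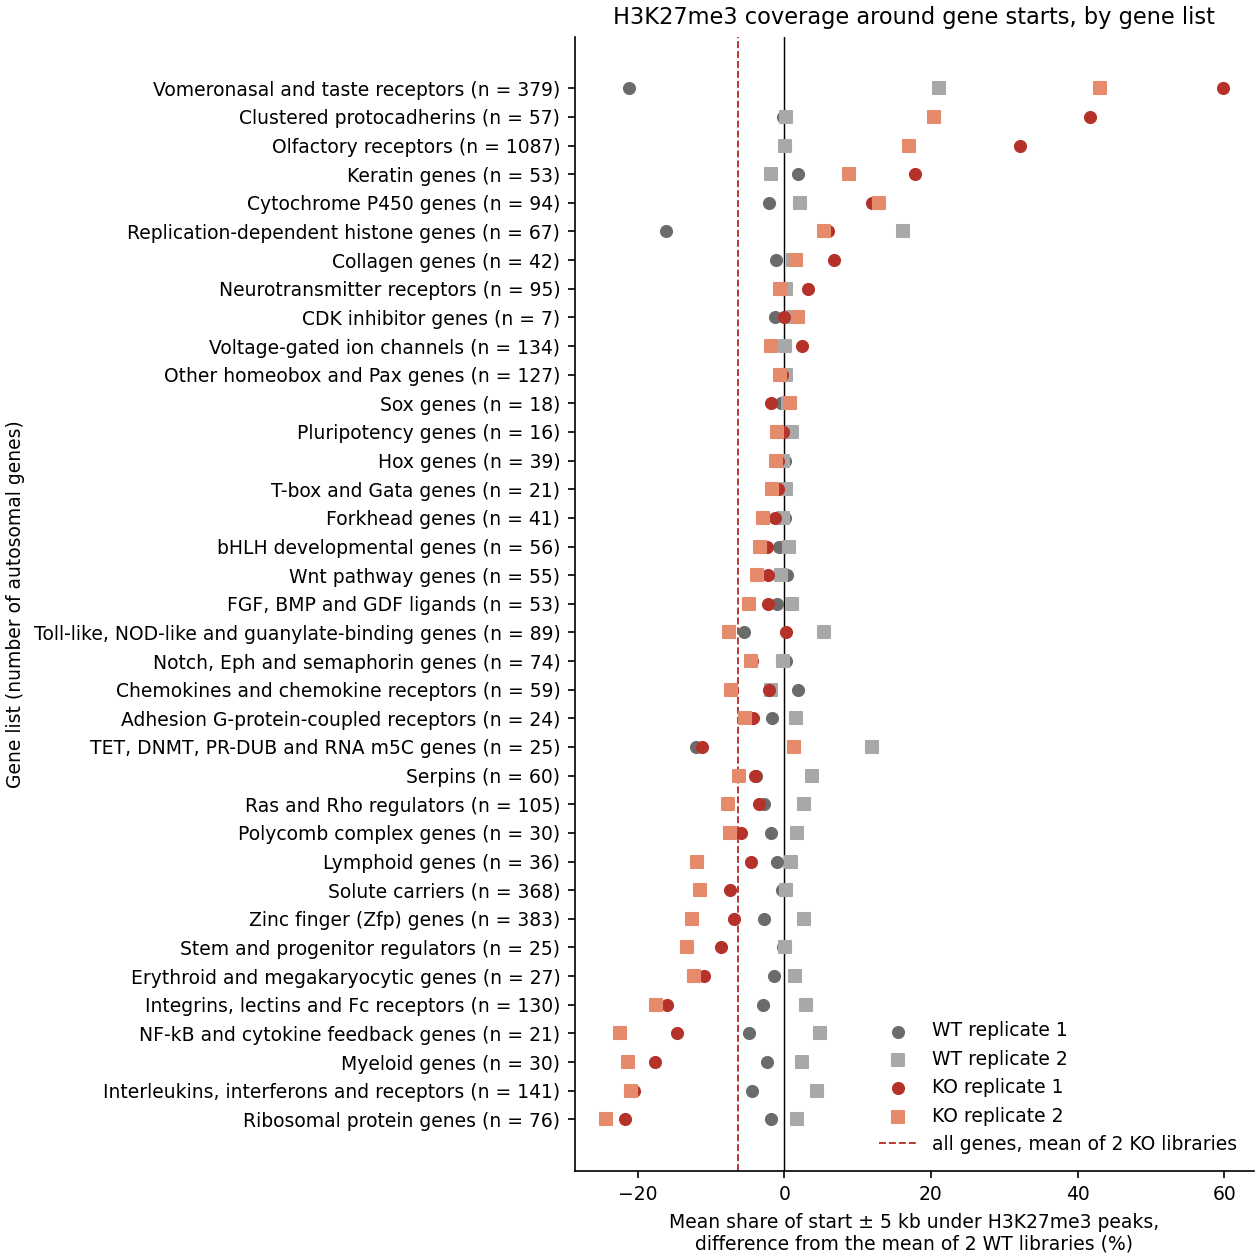
Mean share of the stretch 5 kb on each side of the start under H3K27me3 peaks for 37 gene lists, as the difference from the mean of the 2 WT libraries (horizontal axis, %); grey marks are WT, red marks KO, and the dashed line is the KO mean over all genes at -6.27%. Clustered protocadherins, keratins and olfactory receptors lie to the right, and myeloid, cytokine and ribosomal protein genes to the left.

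Among classical Polycomb targets, Hox and other homeobox and Pax genes were covered close to the ceiling, where positions without height cannot show a gain or a moderate loss. Hox genes were covered to 92.2% and 91.9% in WT against 91.3% and 91.1% in KO, with 37 of 39 promoters touched in all 4 libraries. Other homeobox and Pax genes were covered to between 92.6% and 93.4% in every library, and 124 of 127 promoters were touched throughout. Lists of Sox, forkhead, T-box and Gata, bHLH and Wnt pathway genes differed by between -2.91% and -0.529% in the mean. These lists were further from the ceiling, covered to between 66.1% and 79.9% in the WT libraries. Within the Wnt list 16 of 55 genes were nevertheless lower in both KO libraries (29.1%), among them Fzd9, a Frizzled receptor, with 52.3% and 50.5% in WT against 33.3% and 32.2% in KO.

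Genes of the Polycomb complexes had a mean of 24.3% and 25.2% in WT against 23.3% and 22.9% in KO, a change of -6.68% beside -6.27% over all genes. Of 30 such genes 5 were lower (16.7%) and 1 higher, Cbx6, a PRC1 chromobox subunit, whose promoter went from 0% in both WT libraries to 49.9% and 43.3% in KO. In the list of TET, DNMT, PR-DUB and RNA m5C genes the means overlapped, at 9.75% and 12.4% in WT against 9.84% and 11.2% in KO, and no promoter was gained or lost. CDK inhibitor genes overlapped as well, and 6 of 7 promoters were touched in all 4 libraries. Ribosomal protein genes, few of which are silent in any cell, had lower means in KO, 15.7% and 16.3% in WT against 12.5% and 12.1% in KO.

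The targeted gene could not be checked from these lists, because a deletion leaves no trace in positions of a repressive mark. Tet2, at chr3:133463679-133545139, had no peak over its body in either WT library or in KO replicate 1, and 0.482% of its body was covered in KO replicate 2. The m5C writer gene Nsun2 was covered over its body to 15.7% and 15.8% in WT against 6.44% and 6.07% in KO, but within 5 kb of its start the genotypes overlapped, with 17.5% and 13.0% in WT and 19.01% and 13.9% in KO. Nfkbia and Bap1 did not separate the genotypes, and neither did Mbd6, which codes for a methyl-CpG-binding domain protein of the PR-DUB complex and was covered over its promoter to 81.0% and 89.6% in WT against 40% and 100% in KO. Of 12 markers of haematopoietic stem and progenitor cells, 9 or 10 had a promoter peak in each library, and their mean share within 5 kb was 33.9% and 34.7% in WT against 30.2% and 26.2% in KO. Ptprc (CD45) stood at 0% within 5 kb in all 4 libraries and Kit between 7.67% and 14.2%, while Gata2 and Tal1 were covered to at least 85.6%. In the same lists, 9 of 10 markers of neural, muscle, liver and gut cells had a promoter peak in every library.

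At the promoters themselves, H2AK119ub did not mirror the H3K27me3 calls. Over the 249 gained promoters it covered 37.5% and 30.7% in WT against 40.7% and 40.3% in KO (exact p = 0.333), and over the 270 lost promoters 51.1% and 47.1% in WT against 51.6% and 53.8% in KO (exact p = 0.333). The differences of 6.36 and 3.61 points became 2.97 and 1.64 without WT H2AK119ub replicate 2, the shortest H2AK119ub list with 112281 autosomal peaks, and 9.76 and 5.58 without WT H2AK119ub replicate 1. Higher in KO was also the mean over all promoters, with 47.0% and 41.9% in WT against 50.1% and 50.5% in KO. By the same rule of both against neither, H2AK119ub was gained at 353 of all promoters (1.7%) and lost at 71 (0.341%). Every such gain needs a promoter without a peak in WT H2AK119ub replicate 2, the shortest list. The paper reports the other direction, a loss of H2AK119ub in Tet2 KO HSPCs, from levels normalised to depth and spike-in. Covered shares carry no height and are an unlike measure. Of the promoters that gained H3K27me3, 6 also gained H2AK119ub (2.41%) and 0 lost it. Of those that lost H3K27me3, 6 gained H2AK119ub (2.22%) and 5 lost it (1.85%).

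Mouse embryonic stem (mES) cells with and without Tet2 were the nearest comparison for the same mark. There the rule called 95 promoters gained (0.457%) and 1222 lost (5.87%). Promoters gained in HSPCs were gained in mES cells in 4 cases (1.61%) and lost in 13 (5.22%), and promoters lost in HSPCs were lost in 18 (6.67%) and gained in 0. Covered length on the log2 scale differed between KO and WT by 0.04 in HSPCs and by -0.22 in mES cells. The difference of 0.27 between these effects did not pass the exact permutation test within cell type (p = 0.5, smallest possible 0.0556). It was 0.006 without mES KO replicate 2, 0.12 without mES WT replicate 2, 0.42 without mES WT replicate 1 and 0.53 without mES KO replicate 1. Of the domains lost in HSPCs, mES cells had 40.5% and 46.1% covered in WT against 38.6% and 29.6% in KO. Of the domains gained in HSPCs they had 33.4% and 41.2% covered in WT against 38.8% and 26.8% in KO. Over all 11329 domains the mES shares were 41.7% and 48.0% in WT against 42.7% and 33.0% in KO. Stretches gained in KO HSPCs were thus in part marked in WT mES cells, but less than the average domain.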

How the data were processed

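Peak lists of 4 HSPC H3K27me3 CUT&Tag libraries (2 WT, 2 KO) were used, with 4 HSPC H2AK119ub and 4 mES H3K27me3 lists for comparison. The labels gave each library its group and number. According to the submitters' processing notes and the methods, reads had passed Trimmomatic 0.39 and Bowtie2 2.4.1 (mm10, Drosophila spike-in, best of several alignments kept), and duplicates had been dropped with Picard. Peaks were called with MACS2 in broad mode according to the methods, while the notes name HOMER 4.9. Which program made the deposited lists is not given in the sources used here. The deposited files give the position of each peak and no score, count or p-value from the authors, so depth is unknown, and between 33.2% and 38.0% of autosomal peaks per library had the width of 501 bp, which limits the smallest difference seen. More reads lengthen a list, and list length and depth cannot be separated.

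Covered shares were computed (numpy 2.4.6, pandas 2.3.3, Python 3.11.15) on chromosomes 1 to 19, with GENCODE M21 gene models and the GRCm38.p6 sequence. Domains were tested with limma 3.58.1 in R 4.3.3 (arcsine square root of the share, trended robust eBayes, Benjamini-Hochberg adjustment), and group means with exact permutation tests. Calls and fits were tested on simulated shares. The methods speak of biological replicates, but the labels do not tie libraries to separate mice, so p-values measure the spread between these libraries, which may be technical. Genes were named by rank of the gap between groups, as 12 promoters and 6 domains in each direction, plus changed members of 37 gene lists and genes of the study; symbols starting with Gm or ending in Rik were passed over. The members and lists were chosen with earlier results of these data known. Alternatives were peaks of at least 1 kb, other joining, gap and length thresholds, equal list lengths, wider promoters, the replicate block and leaving out each library. Also, 3 domains and some marker values are not reported here.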

Additional observations from a re-analysis of the deposited data

Results flagged for a closer look

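The X chromosome, which the comparison leaves out, carried H3K27me3 over at least 21.7 Mb in each KO library of HSPCs and at most 1.07 Mb in each WT library. H2AK119ub differed in the same direction, with at least 2.51 Mb in each KO and at most 0.541 Mb in each WT library. These values were picked out because they lie in data outside the autosomal comparison and above the level of the WT libraries. The sex of the mice is not given per library, so sex and genotype cannot be told apart here.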

How the results depend on the processing

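Numbers of calls depended on the thresholds, and the cause was not tested. A gap of 10 points gave 2070 gained and 1323 lost domains, a gap of 40 points 188 and 44, joining peaks within 3 kb 579 and 346, and domains of at least 10 kb 391 and 150. Leaving out single libraries gave 1143 to 1937 gained and 787 to 1157 lost domains, and 549 to 773 gained and 572 to 692 lost promoters, since with 1 library in a group the call is easier to meet. The limma calls numbered 321 on untransformed shares, 856 of 5603 domains of at least 10 kb, 23 with equal numbers of peaks and 0 without any single library, with the lone library assumed to vary like the other group (1904 to 2337 at an unadjusted p under 0.05). The covered length differed by 5.00 Mb, from -1.68 Mb without KO replicate 1 to 11.7 Mb without KO replicate 2. The number of peaks turned to 1048.5 more in KO among peaks of at least 1 kb. The number of promoters with a peak turned from -25 to 6.5 more with a longer overlap required and to 76 more with equal numbers of peaks, and ranged from -250 to 200 without single libraries. With the replicate number as a replicate block, 223 domains passed limma, and 1335 were gained and 715 lost. The labels share only a number between the groups (r = 0.0142 between the paired differences over 11329 domains), so the block is no paired design. Alternatives for the named promoters, named domains and gene lists, chosen after seeing the data, moved 25 of 144, 8 of 72 and 10 of 228 values by more than the spread between replicates. The sign changed for 0 named promoters, 0 named domains and 13 values of 8 gene lists, which are the 8 whose means overlapped between the genotypes. Where the libraries did not overlap between the genotypes, leaving out 1 library cannot change the sign. All named promoters and domains were picked that way, so most of these alternatives could not have changed their sign. Depth is unknown.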

Other observations

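Other kinds of annotated genes had similar or lower shares of called promoters. Of 5209 lincRNA promoters 60 were gained (1.15%) and 56 lost (1.08%), and of 8924 processed pseudogenes 59 were gained (0.661%) and 58 lost (0.650%), against 1.01% and 1.04% over all 51229 autosomal genes of any type. Small nucleolar RNA promoters had more gains than losses, 28 against 12 of 1442. A peak touched their promoters in 13.9% and 15.4% of cases in WT and 16.4% and 15.3% in KO, so that the libraries overlapped.

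Solute carriers, membrane transporters of small molecules, formed a list of 368 genes. Of these promoters 9 were lost (2.45%) and 3 gained (0.815%), against 1.3% and 1.2% of all promoters. The starts of 96 were lower in both KO libraries (26.1%) and 31 higher (8.42%), against 19.2% and 9.21% of all starts. Integrins, lectins and Fc receptors had 20 of 130 starts lower (15.4%) and 2 higher (1.54%), both below the shares of all starts. No promoter of that list was called in either direction. Replication-dependent histone genes had 16 of 67 starts higher (23.9%) and 9 lower (13.4%), with means that overlapped between the genotypes. Histone genes are near-identical copies, and single members are uncertain.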
